A study of Mus musculus with 2 samples.

Results

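The miRNA genes Mir143, Mir145a and Mir145b were examined in small RNA libraries of the mouse adrenal gland. They were chosen by name, with earlier results of these data known, as 3 of the 2202 annotated miRNA genes in the count tables. The libraries came from 2 female mice of the hybrid strain B6CASTF1/J aged 25 days, with no treatment or genetic alteration named in the labels. Both belong to 1 group of whole adrenal gland tissue, and the labels number the animals 4 (library 2) and 3 (library 1) but give both the same donor identifier. The assay was sequencing of total RNA below 30 nucleotides, 1 library per animal. Differences between the libraries therefore include dissection, library preparation and sequencing as well as animals, and these cannot be told apart. Levels are normalised read counts in CPM (counts scaled to a common total), where the total is the sum over miRNA genes of reads on their strand.

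miR-143 and miR-145 are the best known miRNAs of vascular smooth muscle. In mouse they are processed from a common primary transcript that serum response factor and its coactivator myocardin switch on, and they favour the contractile over the proliferative state of the muscle cell. Mice that lack them have arteries with a thin muscle layer and poor contraction. Pericytes and fibroblasts also make them, and the adrenal gland holds such cells in its arterioles, its sinusoid walls and its mesenchymal capsule. The mature miRNAs of Mir143 and Mir145a do not share a seed, the short 5′ segment that selects targets, so each has its own target set.

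In mm10, Mir143 (ENSMUSG00000065445.3) spans bases 61649196 to 61649258 of chromosome 18 and Mir145a (ENSMUSG00000065592.2) bases 61647825 to 61647894, both on the minus strand. The genes lie 1301 bases apart, with Mir143 upstream. In the GENCODE M21 annotation, with which the reads were counted, neither gene overlaps an exon or intron of another gene. The long noncoding RNA gene Carmn, a smooth muscle and cardiac regulator on the same strand, begins at base 61665537 and ends at base 61649625 there, 366 bases short of Mir143. In the RefSeq annotation of the same build, Carmn, with Mir143hg among its synonyms, extends down to base 61645878 and contains both miRNA genes. On the other strand, the long noncoding RNA gene Bvht, a cardiac lineage regulator, ends 352 bases from Mir145a. The nearest protein-coding gene on the Mir143 side is Il17b, a cytokine gene, at 35628 bases from Mir143. On the Mir145a side it is Csnk1a1, a casein kinase gene, at 57763 bases from Mir145a.

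Mir145b (ENSMUSG00000098366.1) is not part of that cluster. It spans bases 69022199 to 69022273 of the same strand of chromosome 18, 7.37 megabases from Mir143, and overlaps no other annotated gene. Its precursor shares a longest run of 17 bases with that of Mir145a, below the 20 bases taken here as a stretch that could leave reads without a unique place. None of the 3 genes shares such a stretch with any other annotated miRNA gene. Other places in the genome were not searched. No sequences of the 3 genes are printed.

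Mir143 was among the miRNA genes with the most reads, Mir145a had far fewer, and Mir145b was at the limit of detection. How evenly the libraries captured different miRNAs was not measured. Read counts, ranks and ratios of different genes therefore need not equal their relative amounts in the gland. Mir143 had 158654 reads in library 2 and 61247 reads in library 1. These were 40553 CPM in library 2 and 27293 CPM in library 1, a mean of 33923 ± 9376 CPM (SD, n = 2). Mir143 ranked 6th of all miRNA genes in library 2 and 13th in library 1, and its 95% Wilson intervals, which cover counting error only, did not meet, with 4.04 to 4.07% of the miRNA reads in library 2 and 2.71 to 2.75% in library 1.

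Mir145a had 3087 reads in library 2 and 1900 reads in library 1. These were 789 CPM in library 2 and 847 CPM in library 1, a mean of 818 ± 40.7 CPM (SD, n = 2). Its rank was 91 in both libraries. The share of the miRNA reads was 0.0789% (95% Wilson interval 0.0762 to 0.0817%) in library 2 and 0.0847% (0.0809 to 0.0886%) in library 1, so these intervals overlapped.

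Mir145b had 1 read in library 2 and 0 reads in library 1. The single read was 0.256 CPM, and the 3 reads that a count of 0 allows were 1.34 CPM in library 1. The libraries thus cannot be compared for this gene, which was not tested. With the 10 reads in each library used here to call a gene detected, Mir143 and Mir145a were among the 337 detected genes and Mir145b was not.

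**Figure D1:**
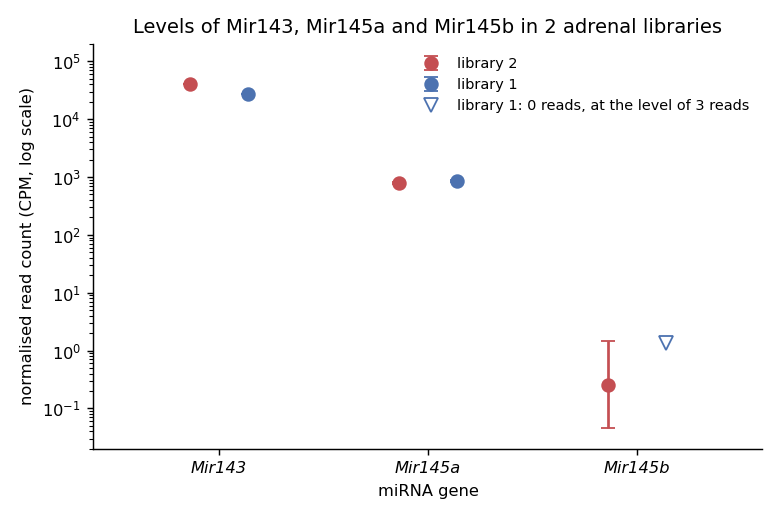
Level of each gene in CPM on a log axis, library 2 (red) left of library 1 (blue), with 95% Wilson intervals of counting error that are smaller than most points. Mir143 was at 40553 CPM in library 2 and 27293 CPM in library 1, Mir145a at 789 CPM in library 2 and 847 CPM in library 1, and Mir145b had 1 read in library 2 and 0 in library 1 (open triangle, drawn at the 1.34 CPM of 3 reads).

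All of these reads lay on the strand of the genes. Mir143 and Mir145a had 0 reads on the opposite strand in both libraries, and their unstranded counts equalled the stranded counts. The choice of count column therefore did not touch their reads, only the library size they are divided by.

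By mean CPM, Mir143 was the gene with rank 8. Directly above it stood Mir378a, the intronic miRNA of the mitochondrial regulator gene Ppargc1b, with 43969 ± 6134 CPM and Mir375, a miRNA of endocrine cells, with 37067 ± 716 CPM (SD, n = 2). Directly below stood Mir23b with 30697 ± 4895 CPM and Mir22 with 28391 ± 23420 CPM (SD, n = 2). The values of each of these 4 genes overlapped those of Mir143 between the libraries, so its place among them was not settled beyond the spread. Mir145a had rank 92 by mean CPM, between Mir672 with 827 ± 421 CPM and the erythroid Mir144 with 801 ± 918 CPM (SD, n = 2). Next to these stood Mir487b, with 831 ± 510 CPM, and Mir484, with 791 ± 145 CPM (SD, n = 2). The values of all 4 neighbours overlapped those of Mir145a as well. The counts of Mir378a, Mir23b and Mir487b are uncertain, because each has 20 bases in a row that also occur in the gene of another miRNA.

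Together, Mir143 and Mir145a held 161741 reads in library 2 and 63147 reads in library 1. This was 4.13% of the miRNA reads in library 2 and 2.81% in library 1, a mean of 3.47 ± 0.934% (SD, n = 2). Chromosome 18 carries 57 annotated miRNA genes, of which 9 were detected. Its share of the miRNA reads was nearly level, with 8.16% in library 2 and 8.18% in library 1, but the pair made up 50.7% of that share in library 2 and 34.4% in library 1. The rest was mostly Mir378a and, in library 1, the hepatocyte miRNA Mir122, with 1919 reads in library 2 and 11635 reads in library 1.

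The first comparison asked whether the members moved between the libraries. Mir143 was higher in library 2, by 1.58-fold, with a log2 ratio of 0.66 and a 95% counting interval from 0.64 to 0.67. Mir145a was level, with a log2 ratio of -0.02 and an interval from -0.10 to 0.07. The test was a two-sided exact binomial test on reads, scaled by edgeR's TMM method, with Benjamini-Hochberg adjustment over the 411 miRNA genes with 10 or more reads summed. It compares these libraries and not conditions. Mir143 passed it, with a p-value too small for the software to distinguish from 0, and Mir145a did not (exact binomial test, adjusted p = 0.807). Of the 2 members tested, 1 was thus called, beside 58.4% of all genes tested. Higher in library 2 were 29.4% of all genes tested, Mir143 among them.

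A ratio of this size was not rare among the detected genes. The median absolute log2 ratio of the 337 detected genes was 0.47, and 110 of them (32.6%) had a larger absolute ratio than Mir143. For Mir145a, 98.5% had a larger absolute ratio. Among the 166 detected genes with 1000 or more reads summed, the coefficient of variation of CPM between the libraries had a median of 20.9%. It was 27.6% for Mir143, with 105 of those genes steadier, and 4.98% for Mir145a, with 24 steadier. The direction for Mir145a turned with the scaling. Its log2 ratio was -0.10 with scaling by library size alone, which passed the threshold (exact binomial test, adjusted p = 0.0283). The ratio was 0.05 with DESeq2 size factors, 0.15 with no filter on low counts and 0.21 with all reads of the tables as the library size, and the last 2 passed the threshold (exact binomial test, adjusted p = 0.00144 and 1.06e-06). Mir143 stayed higher in library 2 under every scaling tried, by 0.57 to 0.89 on the log2 scale.

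**Figure D2:**
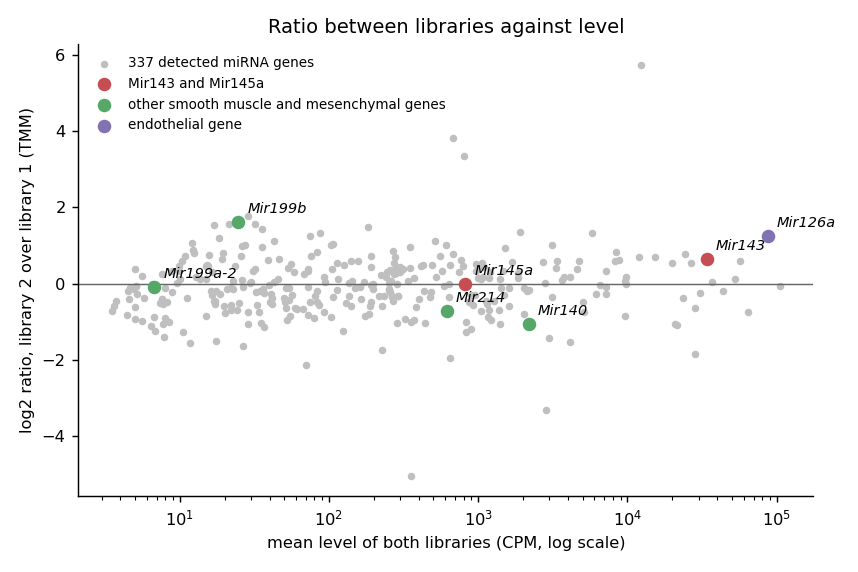
Log2 ratio of library 2 over library 1 (TMM scaling) against mean CPM on a log axis for the 337 detected miRNA genes, each a grey point, with the named genes in colour. Mir143 lies above 0 at the right, near the endothelial Mir126a, and Mir145a lies on the line at 0, where its sign turned with other scalings.

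The genes whose ratio was nearest to that of Mir143, over 2 libraries and among genes with 1000 or more reads summed, were Mir30b (log2 ratio 0.69), Mir99a (0.70) and Mir708 (0.61). Nearest to Mir145a were Mir30d (-0.02), Mir193b (-0.01) and Mir1981 (-0.01). With only 2 libraries a pattern is a single ratio, so likeness here says no more than that these ratios were close.

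The second comparison set Mir143 against Mir145a within each library, which needs no scaling between libraries. Mir143 had 51.4 times the reads of Mir145a in library 2 (95% exact interval 49.6 to 53.3) and 32.2 times in library 1 (30.8 to 33.8). The intervals did not meet. Mir145a made up 1.91% of the reads of the pair in library 2 (95% Clopper-Pearson interval 1.84 to 1.98%) and 3.01% in library 1 (2.88 to 3.15%). The ratio was thus 1.59-fold higher in library 2 (95% interval 1.51 to 1.69), a change of 0.67 on the log2 scale (two-sided Fisher's exact test on reads, adjusted p = 1.18e-53 over 11 comparisons, counting error only). A read of a mature miRNA covers it from end to end, so reads were not divided by length. Per base of the annotated gene, of 63 bases for Mir143 and 70 bases for Mir145a, the ratio of reads was 57.1 in library 2 and 35.8 in library 1.

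Large differences within a pair were not confined to this one. Among the 108 pairs of detected genes that are neighbours on a strand within 10 kb, 46 of them on chromosome 12, the median level difference was 2.06 on the log2 scale. The difference between Mir143 and Mir145a, 5.35 ± 0.476 (SD, n = 2), was 16th in size. Of the 15 pairs that differed more, 9 hold a gene that shares a stretch of 20 bases with another position, whose reads can be missing. Among the 67 pairs without such a gene, 8.96% differed more. Closest above it were Mir127 and Mir434 of the imprinted Dlk1-Dio3 cluster, with ratios of 48.2 in library 2 and 35.6 in library 1. Next came Mir30e and Mir30c-1, with 56.5 in library 2 and 36.0 in library 1, and Mir181b-2 and Mir181a-2, with 86.8 in library 2 and 31.0 in library 1. Both of these pairs hold a gene with a shared stretch.

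The change of the level difference between the libraries was less unusual. It was 0.67 on the log2 scale for Mir143 and Mir145a, against a median of 0.51 over the 108 pairs, and 38.0% of the pairs changed more. The change was larger for Mir181b-2 and Mir181a-2, at 1.48, and smaller for Mir30e and Mir30c-1, at 0.65, and for Mir127 and Mir434, at 0.44.

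**Figure D3:**
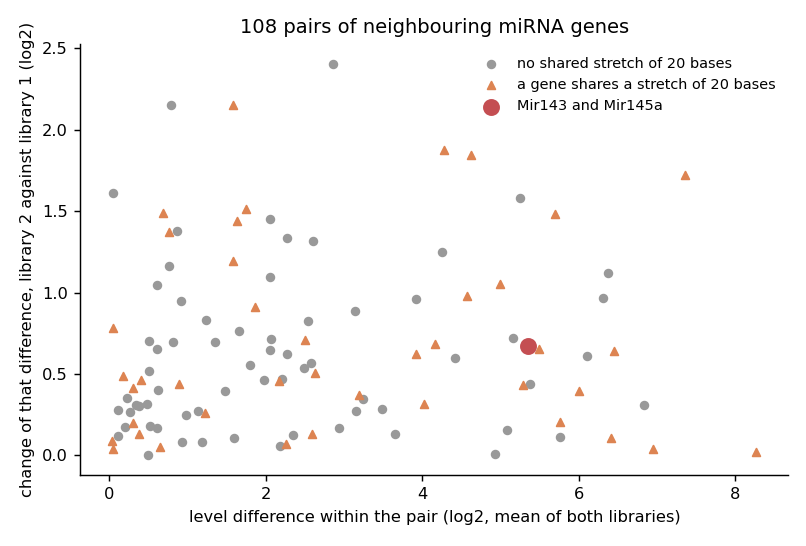
Each point is 1 of 108 pairs of neighbouring detected miRNA genes, with the log2 level difference within the pair (mean of both libraries) on the x axis and the size of its change between library 2 and library 1 on the y axis. Mir143 and Mir145a (red) lie at 5.35 and 0.67, in the right part of the plot, with 38.0% of the pairs above them. Triangles mark pairs with a gene that shares a stretch of 20 bases elsewhere.

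The third comparison set the pair beside other miRNA genes of smooth muscle and mesenchyme. The list held 9 genes, the 3 members among them, and 6 were detected. Mir143 and Mir145a with the read of Mir145b made up 95.7% of the reads of the list in library 2 and 88.0% in library 1. The other 6 genes held 0.186% of all miRNA reads in library 2 and 0.382% in library 1. Of the 7 genes tested, 2 were higher in library 2 (Mir143 and Mir199b), 2 were higher in library 1 (Mir140 and Mir214) and 3 did not pass. The share called over all genes tested was 58.4%, and 29.4% were higher in library 2, so the list was near the background. The median log2 ratio of the 6 detected genes was -0.05, beside -0.09 over all 337 detected genes.

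Mir140, the miRNA of cartilage and other mesenchyme, had 5342 reads in library 2 and 6774 reads in library 1, and was 2.08-fold higher in library 1. Mir214, which lies with Mir199a-2 in a transcript opposite Dnm3 and is found in fibroblasts, had 1756 reads in library 2 and 1752 reads in library 1. After scaling, Mir214 was 1.64-fold higher in library 1 (exact binomial test, adjusted p = 3.92e-47). Both thus went the other way from Mir143, and the signs of Mir143, Mir140 and Mir214 held under every scaling tried. Mir199b, another mesenchymal miRNA, had 144 reads in library 2 and 28 reads in library 1 (log2 ratio 1.63, exact binomial test, adjusted p = 2.36e-09). Mir199a-2 had 25 reads in library 2 and 16 reads in library 1, Mir490 of the muscarinic receptor gene Chrm2 9 reads in library 2 and 6 reads in library 1, and Mir199a-1 1 read in library 2 and 0 reads in library 1.

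The low counts of the miR-199 genes have to be read with their sequences, which are shown for the detected comparison genes because identical mature copies take reads out of the counts. They are RefSeq mature sequences (GRCm38.p6), 5′ to 3′, with the seed, bases 2 to 8, in capitals.
miR-199a-3p of Mir199a-2: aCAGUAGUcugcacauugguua
miR-199b-3p of Mir199b: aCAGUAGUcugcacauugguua
miR-199a-5p of Mir199a-2: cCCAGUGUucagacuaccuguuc
miR-214-3p of Mir214: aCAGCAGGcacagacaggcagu
miR-140-3p of Mir140: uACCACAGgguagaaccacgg
miR-126a-3p of Mir126a: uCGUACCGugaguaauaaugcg
The 3p sequence is the same in Mir199a-1, Mir199a-2 and Mir199b, and the 5p sequence the same in Mir199a-1 and Mir199a-2. Reads of such a sequence map to several places and are in no gene count. The level of the miR-199 genes is therefore understated by an amount that was not measured, and the ratio of Mir199b between libraries is uncertain. The seeds of miR-214-3p, miR-140-3p and miR-126a-3p each occur once among the sequences shown. Other miRNAs were not searched for these seeds, and the 5p sequence of Mir214 is not shown.

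The vessel miRNA with the most reads was the endothelial Mir126a, which lies in Egfl7 and supports vascular integrity. It had 473413 reads in library 2 and 120647 reads in library 1, so that it was 2.39-fold higher in library 2 (log2 ratio 1.26). In the unstranded counts, which set aside reads ambiguous between overlapping genes, Mir126a had a log2 ratio of 0.87 and did not pass (exact binomial test, adjusted p = 0.506). Mir126b lies within Mir126a on the opposite strand. A ratio of that size fails this test only where few reads are left, so those counts measure Mir126a poorly. By the stranded counts, Mir126a and Mir143 moved in the same direction, by unequal amounts. Mir143 had 0.335 times the reads of Mir126a in library 2 and 0.508 times in library 1, a change of -0.60 on the log2 scale (95% interval -0.62 to -0.58, two-sided Fisher's exact test on reads, p too small to distinguish from 0). Mir145a had 0.00652 times the reads of Mir126a in library 2 and 0.0157 times in library 1, a change of -1.27 on the log2 scale (95% interval -1.36 to -1.19). Against Mir140 the change was 1.72 for Mir143 and 1.04 for Mir145a, and against Mir214 it was 1.37 for Mir143 and 0.70 for Mir145a. These passed the same test. Against Mir199b the change went the other way, with -0.99 for Mir143 and -1.66 for Mir145a, and both passed. The counts of Mir199b are uncertain for the reason given with its sequence. Against Mir199a-2 neither passed, with changes of 0.73 for Mir143 (interval -0.18 to 1.63) and 0.06 for Mir145a (interval -0.85 to 0.97), which the few reads of Mir199a-2 leave wide. In all, 9 of the 11 comparisons passed an adjusted p of 0.05, counting error only. The share that would pass over other pairs of genes was not taken, so this count has no background beside it. But for the 0.5 read added there, each change is the difference between the log2 ratios of the genes compared. The comparisons are therefore not independent of each other or of those ratios.

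**Figure D4:**
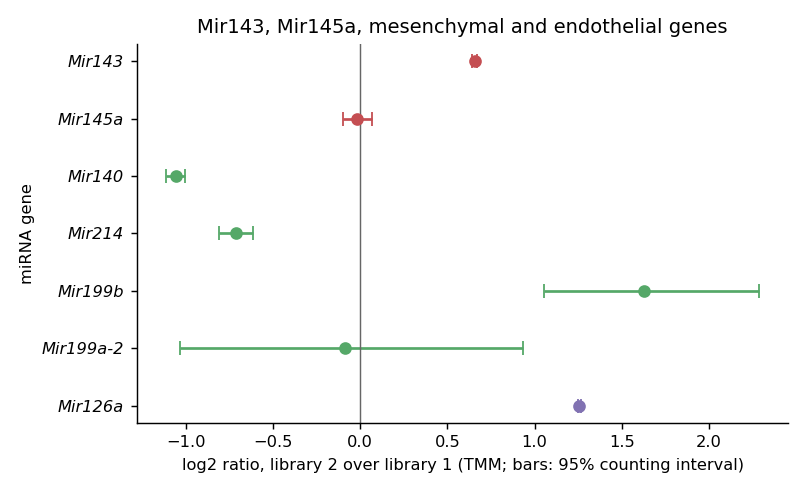
Log2 ratio of library 2 over library 1 (TMM scaling) for Mir143 and Mir145a (red), the other detected smooth muscle and mesenchymal genes (green) and the endothelial Mir126a (purple), with 95% counting intervals. Mir143 at 0.66 lies between Mir145a at -0.02, whose sign turned with other scalings, and Mir126a at 1.26. Mir140 and Mir214 lie below 0, Mir199b lies highest at 1.63, and the interval of Mir199a-2 at -0.09 crosses 0.

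Markers of other cells differed between the libraries as well. In bulk tissue, fewer cells of a type and less RNA per cell cannot be told apart. The erythroid list, with 3 of 3 annotated genes detected, held 2.57% of the miRNA reads in library 2 and 0.068% in library 1. Most of these reads in both libraries were those of Mir451a. Mir486 of the same list, with 86 reads in library 2 and 107 reads in library 1, was 2.04-fold higher in library 1 (exact binomial test, adjusted p = 2.14e-06). Mir3107 lies within Mir486 on the opposite strand, and overlapping genes were not searched for shared stretches. Reads of Mir486 can thus be missing, and its ratio is uncertain. The hepatocyte miRNA Mir122 held 0.0491% in library 2 and 0.518% in library 1, and the leukocyte list, with 5 of 6 genes detected, 0.161% in library 2 and 0.213% in library 1. The leukocyte genes did not move together. Mir142 was 1.80-fold higher in library 2 (exact binomial test, adjusted p = 2.36e-28) and Mir155 did not pass. Mir342, Mir150 and Mir223 were higher in library 1. The epithelial list, with 5 of 8 detected, held 0.0126% in library 2 and 0.0168% in library 1. The endocrine and neuroendocrine list, with 8 of 8 detected, held 4.44% in library 2 and 4.31% in library 1. Most of this was Mir375, with 36561 CPM in library 2 and 37574 CPM in library 1. After TMM scaling 7 of the 8 passed as higher in library 2, beside 29.4% of all genes tested. Among the 7 was Mir375, with a log2 ratio of only 0.05 and a CPM, scaled by library size alone, that was lower in library 2. The other called gene, Mir183, was higher in library 1. Over the 8 genes the median log2 ratio was 0.54, beside -0.09 over all 337 detected genes. Mir7-2 (1.26) and Mir137 (1.00) had the largest ratios of the list. The part of these differences in the ratio of Mir143 was not tested.

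Skeletal and cardiac muscle miRNAs were at or near 0. The striated muscle list had 13 reads in library 2 and 13 reads in library 1, none of its 9 genes was detected, and Mir1a-1, Mir1a-2, Mir133a-1, Mir133a-2, Mir133b and Mir208a had 0 reads in both libraries. Of these 9 genes, 5 have 20 bases in a row in common with other annotated miRNA genes, so that their reads can be missing from the counts.

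Library 2 held 11132685 reads, of which 3912280 (35.1%) lay on the strand of a miRNA gene, and library 1 held 7938596 reads, of which 2244073 (28.3%) did. A further 27.5% of the reads of library 2 and 28.4% of those of library 1 had more than 1 place in the genome and were counted for no gene. No molecular identifiers are named in the labels, and PCR copies of a molecule count as separate reads, so the intervals and floors given here cover counting error only and can be too narrow.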

How the data were processed

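Small RNA below 30 nucleotides was sequenced from adrenal gland tissue of 2 animals as numbered in the labels, 1 library each. The authors deposited raw read counts per miRNA gene, not normalized or pooled, with reads mapped to mm10 and the GENCODE M21 annotation, per the labels and the text deposited with each table. Aligner and counter: not given in the sources used here. Each table has an unstranded count column and 2 stranded ones, a meaning inferred from the values. The stranded column with the larger total was used. Rows naming no gene stayed out of library sizes. Unmapped reads were 27.8% of library 2 and 33.8% of library 1, and reads outside miRNA genes 9.52% of library 2 and 9.57% of library 1.

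Genes with 10 or more reads summed entered an exact binomial test (two-sided) with edgeR 4.0.16 TMM effective library sizes and Benjamini-Hochberg adjustment over all genes. With 1 group there is no coefficient for a quasi-likelihood test. The log2 ratio sets library 2 over library 1 after adding 0.5 read to each count. Ratios of a pair of genes were compared by Fisher's exact test, adjusted over 11 comparisons. Alternatives used DESeq2 1.42.0 size factors, other denominators, filters and columns. Tools were Python 3.11.15, scipy 1.17.1, statsmodels 0.14.6, R 4.3.3. The tests were tried on simulated counts with counting error only. Spread between animals or library preparations was not simulated, so the tests were not checked against it. The members, lists and named genes were chosen with earlier results of these data known. Named genes are the members, detected genes of the smooth muscle and mesenchymal list, Mir126a, 2 genes on each side in rank, the 3 nearest in ratio, the 3 pairs just above in level difference, and genes at the locus. Other lists are endothelial, erythroid, leukocyte, hepatocyte, striated muscle, endocrine and neuroendocrine, and epithelial.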

Additional observations from a re-analysis of the deposited data

How the results depend on the processing

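No paired analysis was possible because the libraries form 1 group. Of 48 alternative values for the members, their ratio, the pairs and the number of genes called, 38 kept their direction and side of the threshold or stayed within the limit set for their kind. Some of the 38 could not have moved. With 2 libraries, a value with 1 left out always lies within the SD that was the limit. The change of Mir143 over Mir145a between libraries has the same reads in both count columns, and gene length cancels in it. With scaling by library size alone, the log2 ratio of Mir145a was -0.10 and passed the exact binomial test (adjusted p = 0.0283). It turned positive with DESeq2 size factors (0.048, not passing), with no filter on low counts (0.15) and with all reads of the tables as denominator (0.21). These settings shifted the median log2 ratio of detected genes by -0.09, 0.06, 0.17 and 0.23, in the order given, and the ratio of Mir145a by the same amounts. The ratio of Mir143 over Mir145a is taken within a library and cannot move with scaling. With all reads of the tables as denominator, the mean level was 10983 CPM for Mir143 and 258 CPM for Mir145a. With the unstranded column it was 991 CPM for Mir145a, since reads of overlapping genes leave the library size there. The share of neighbouring pairs with a larger level difference than Mir143 and Mir145a was 13.9%. It was 8.64% with 100 or more reads in each library, 8.96% without genes that share a stretch of 20 bases, and 17.2% over all pairs within 10 kb, a setting chosen after seeing the data. With 1 library left out, the mean level was 27293 to 40553 CPM for Mir143, 789 to 847 CPM for Mir145a and 0 to 0.256 CPM for Mir145b, and the log2 ratio of Mir143 over Mir145a was 5.01 to 5.68. The 1 and 0 reads of Mir145b limit it to detection.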
